A study of Mus musculus with 16 samples.

Results

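Of 39328 genes in a colon expression table, 10 enteroendocrine genes were examined: Chga, Chgb, Insl5, Sst, Pyy, Gcg, Tph1, Cck, Nts and Neurod1. They were taken by symbol, as the rows whose Ensembl identifiers map to these names, and all 10 were found. All mice were wild-type (WT) adults of the ICR stock and were born vaginally (VD) or by cesarean section (CS). They then drank normal water (groups CON_VD and CON_CS) or 3% dextran sulfate sodium, DSS, an agent that damages the colon epithelium, for 8 days (groups DSS_VD and DSS_CS). Each group had 4 libraries, 16 in all. The labels state no sex, litter or exact age and do not tie a library to an animal, so each p-value measures the spread between libraries, which may be technical.

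Enteroendocrine cells are scattered hormone-secreting cells of the gut epithelium. They store peptides in dense granules built with chromogranins and release them when they sense nutrients, microbial products or stretch. In the colon the best known kinds are L cells, which make peptide YY, the glucagon-derived peptides and insulin-like peptide 5, enterochromaffin cells, which make serotonin through tryptophan hydroxylase 1, and D cells, which make somatostatin. Neurod1 is a transcription factor of their differentiation. Neurons of the gut wall also express Chga, Chgb, Sst, Cck and Nts, and mouse mast cells also express Tph1.

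Values are FPKM, fragments scaled by gene length and by the fragments mapped in the library, as deposited; the number of reads per library is unknown. FPKM sums were 280135 to 343423 per library, and log2 values of libraries of 1 group correlated with r from 0.971 to 0.989 across genes. Libraries CON_CS 1, DSS_CS 3 and DSS_CS 4 stood apart by Pbsn, a prostate gene, at 185, 128 and 1355 FPKM, and results are also given without them where a call changed. The 10 pan-epithelial genes examined, among them Epcam and Cdx2, were above 0 in every library. Their summed FPKM was 4166 to 4945 in CON_VD, 4833 to 5123 in CON_CS, 2002 to 4279.8 in DSS_VD and 727 to 2192 in DSS_CS. Library CON_VD 4 held exocrine pancreas transcripts (10 markers, 82.0 FPKM summed), while Ins1 and Ins2, which mark the islets that also make Gcg and Sst, were listed at 0 in all 16 libraries. In bulk tissue, fewer cells of a type and less RNA per cell cannot be told apart.

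The promoters differ in 1 element that many neuroendocrine genes share, the cyclic AMP response element (CRE, TGACGTCA), which is bound by CREB family proteins. Sequences came from RefSeq on GRCm38.p6, and all 10 genes matched, with 13 start sites. In the 250 bases before the start, searched on both strands, the full CRE was found in 2 of 10 genes, Chgb (72 bases before the start) and Sst (48), and in 1.55% of all 32851 promoter windows. The CRE half-site TGACG, which is contained in the full CRE, was found in 6 of 10 genes (Chga, Chgb, Sst, Tph1, Cck and Nts) and in 17.8% of all windows. The E-box CANNTG, the kind of site that Neurod1 binds, was found in 9 of 10 genes and in 66.2% of windows. Counted by window, as these shares are, the full CRE was in 2 of 13, the half-site in 7 and the E-box in 11. A match describes letters only and is neither a bound site nor a cause. Bases more than 250 before the start were not searched, so a gene without a match may carry the element there. The 120 bases before the start follow for Chga, chr12:102554821-102554940 (plus strand), Chgb, chr2:132781522-132781641 (plus strand), Sst, chr16:23890845-23890964 (minus strand), Tph1, chr7:46672538-46672657 (minus strand), and Cck, chr9:121495695-121495814 (minus strand), because these carry the half-site close to the start, and for the L-cell gene Gcg, chr2:62483654-62483773 (minus strand), in which it was not found. They read 5′ to 3′ on the gene's strand, and capitals mark TGACG, its reverse complement CGTCA or the full CRE.
Chga: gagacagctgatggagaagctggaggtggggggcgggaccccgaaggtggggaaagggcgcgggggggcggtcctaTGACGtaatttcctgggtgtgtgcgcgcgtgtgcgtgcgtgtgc
Chgb: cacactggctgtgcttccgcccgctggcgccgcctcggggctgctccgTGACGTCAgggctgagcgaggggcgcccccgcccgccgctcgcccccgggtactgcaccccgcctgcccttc
Sst: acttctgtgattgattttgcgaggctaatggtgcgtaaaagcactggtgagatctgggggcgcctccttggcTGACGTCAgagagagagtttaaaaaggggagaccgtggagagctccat
Tph1: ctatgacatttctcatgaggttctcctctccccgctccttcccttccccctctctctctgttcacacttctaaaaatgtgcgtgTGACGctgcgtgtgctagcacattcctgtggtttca
Cck: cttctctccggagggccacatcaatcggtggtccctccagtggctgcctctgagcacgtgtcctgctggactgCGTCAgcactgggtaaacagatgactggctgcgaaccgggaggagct
Gcg: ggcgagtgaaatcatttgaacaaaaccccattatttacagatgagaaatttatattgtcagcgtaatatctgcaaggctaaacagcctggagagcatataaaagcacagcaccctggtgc

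In each delivery group 6 of the 10 genes were called higher on DSS, 4 of them in both groups, and none of those tested was called lower. In VD mice 6 of the 10 rose against water (Chgb, Pyy, Gcg, Tph1, Cck and Neurod1), 3 did not pass the test (Chga, Insl5 and Sst) and Nts was too low to be tested. Among all tested genes, 24.0% rose and 17.0% fell in this comparison. In CS mice 6 rose as well (Chga, Chgb, Sst, Gcg, Tph1 and Cck), where 34.4% of all tested genes rose and 25.9% fell. The counts of each gene list below are to be read beside these shares. Chgb, Gcg, Tph1 and Cck were the 4 genes that rose in both. The test was limma on log2(FPKM + 1) with Benjamini-Hochberg adjustment over all tested genes and a threshold of 0.05, so differences are on that scale, which makes those of low genes too small. Testing needed 1 FPKM or more in at least 4 of the fitted libraries. Cck passed this filter through its DSS libraries only, so it had to differ and its call adds nothing to these counts. The same filter favours a rise of any gene with a water library under 1 FPKM, such as Neurod1 in VD mice, and a fall of any gene with a DSS library under it, so such genes are counted or named with the lists below. Without the 3 libraries with high Pbsn, Chga, Chgb, Sst, Gcg and Tph1 still rose in CS mice, and Cck and Neurod1 fell under the filter. The median log2 difference of the 9 tested genes was 0.87 in VD mice and 1.75 in CS mice, against 0.057 and 0.058 over all tested genes. Group ranges did not overlap, with DSS higher, for 6 of the tested genes in each comparison, and for 22.2% and 32.9% of all tested genes. These 6 include Cck in both comparisons, whose separation the filter fixed, and Neurod1 in VD mice, whose separation it favoured. Both medians include Cck too.

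**Figure D1:**
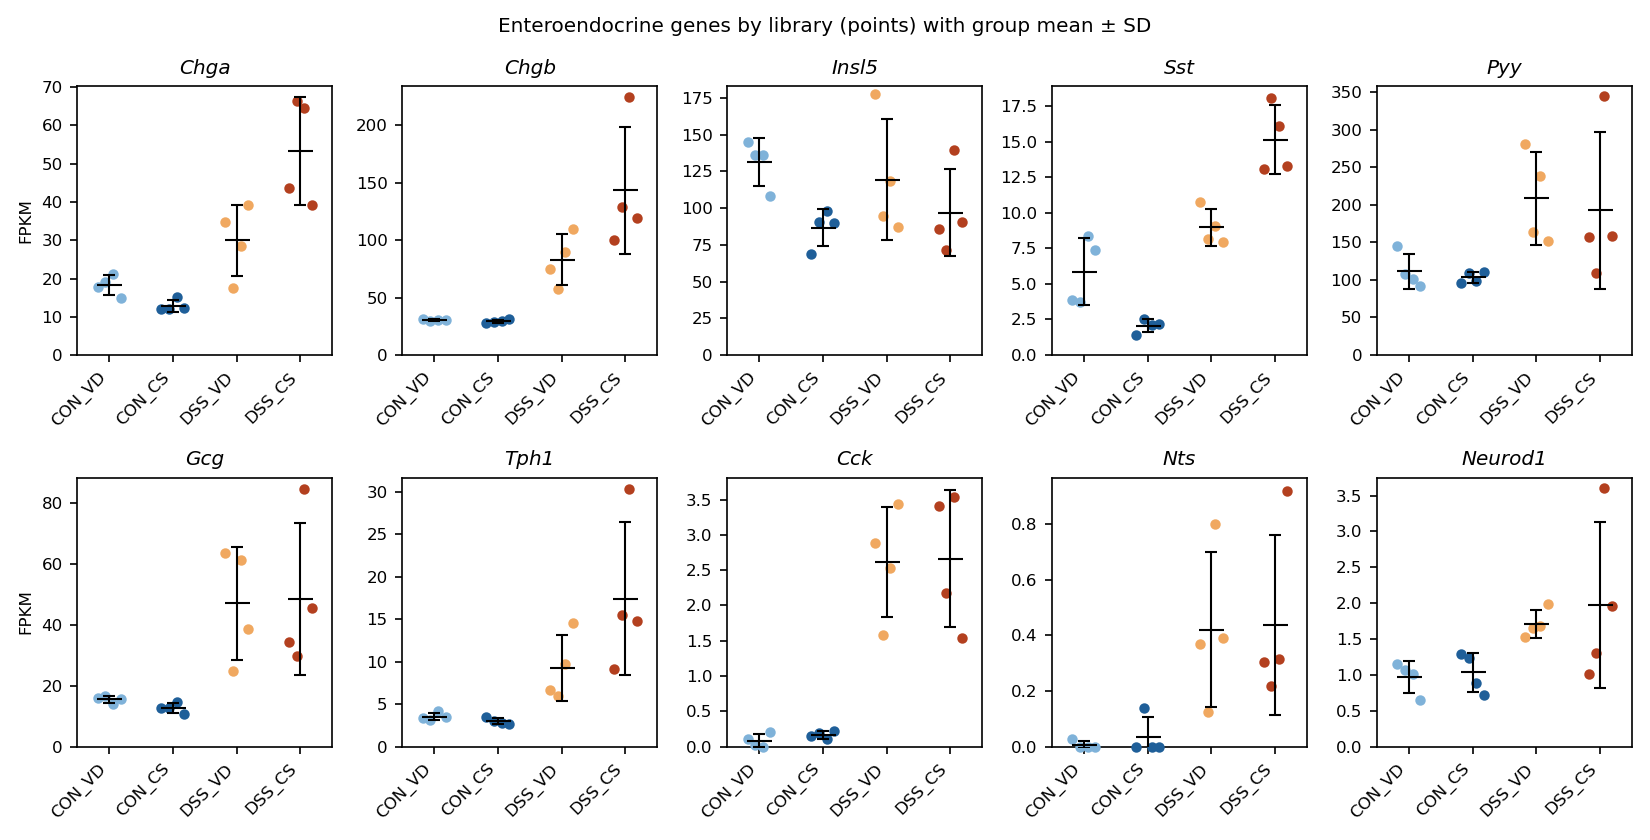
FPKM of each gene (vertical axis, linear, a separate scale in each panel) in the 4 groups (horizontal axis); points are libraries, and lines are the group mean ± SD of 4 libraries. Chgb, Gcg, Tph1 and Cck are higher in all DSS libraries than in all water libraries, while the groups of Insl5 overlap between DSS and water.

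Chromogranin B, a granule matrix protein encoded by Chgb (ENSMUSG00000027350, chr2:132781278-132795079, plus strand), had the smallest SD relative to its mean of the 10 genes in both water groups. It measured 31.2, 29.3, 30.2 and 30.2 FPKM in CON_VD and 27.7, 28.4, 29.6 and 31.2 in CON_CS. On DSS it measured 75.0, 57.9, 89.5 and 110.1 FPKM in DSS_VD and 101, 129, 224 and 119 in DSS_CS. Every DSS library lay above every water library, and DSS_CS 3 was the highest of all. Means were 30.2 ± 0.801, 29.2 ± 1.51, 83.1 ± 22.1 and 143 ± 55.4 FPKM (SD, n = 4 each, in the order CON_VD, CON_CS, DSS_VD, DSS_CS). Chgb rose by a log2 difference of 1.39 ± 0.18 (SE) in VD mice (limma adjusted p = 3.59e-04) and 2.19 ± 0.22 in CS mice (adjusted p = 3.70e-05).

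Chromogranin A, the classical marker of neuroendocrine granules, is encoded by Chga (ENSMUSG00000021194, chr12:102554969-102565028, plus strand). It measured 17.9, 19.1, 21.2 and 14.8 FPKM in CON_VD and 11.99, 12.01, 15.1 and 12.2 in CON_CS. It measured 34.7, 17.5, 28.6 and 39.1 FPKM in DSS_VD and 43.6, 66.3, 64.7 and 39.1 in DSS_CS. All DSS_CS libraries lay above all others, if by a narrow margin over DSS_VD 4, whereas DSS_VD 2 lay inside the CON_VD range. Chga rose in CS mice, by 1.95 ± 0.18 (limma adjusted p = 2.42e-05), and the difference in VD mice was 0.64 ± 0.23 with an adjusted p of 0.0523. Library DSS_VD 2 decided this, since without it the difference was 0.87 and the adjusted p 0.00296. The DSS difference was larger in CS than in VD mice by 1.31 ± 0.31 on the log2 scale (interaction of delivery and DSS, limma adjusted p = 0.0184). Without the 3 libraries with high Pbsn the interaction was 1.33 and its adjusted p 0.0597.

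Of the L-cell hormones, Gcg rose with DSS in both delivery groups, Pyy rose in VD mice, and Insl5 did not pass the test in any comparison. Gcg (ENSMUSG00000000394, chr2:62474530-62483650, minus strand) encodes proglucagon, the precursor of GLP-1 and GLP-2. It measured 15.8, 16.5, 13.9 and 15.5 FPKM in CON_VD and 12.5, 12.5, 14.5 and 10.6 in CON_CS, then 63.4, 24.8, 61.2 and 38.7 in DSS_VD and 34.4, 29.6, 84.5 and 45.4 in DSS_CS. The DSS and water libraries did not overlap, and the DSS libraries spread over a wider range. Gcg rose by 1.45 ± 0.27 in VD mice (limma adjusted p = 0.00230) and by 1.75 ± 0.29 in CS mice (adjusted p = 7.06e-04).

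Peptide YY, a peptide that slows gut transit and food intake, is encoded by Pyy (ENSMUSG00000017311, chr11:102106676-102107832, minus strand). It measured 145, 107, 101 and 91.5 FPKM in CON_VD and 95.6, 109, 99.05 and 110.2 in CON_CS. With DSS the values were 280.3, 164, 239 and 151 FPKM in DSS_VD and 158, 109.6, 345 and 159 in DSS_CS. All DSS_VD libraries lay above CON_VD, but DSS_CS 2 lay inside the CON_CS range and DSS_CS 3 far above it. Pyy rose by 0.87 ± 0.23 in VD mice (limma adjusted p = 0.0139). In CS mice the difference was 0.76 ± 0.30 with an adjusted p of 0.0551, which became 0.0157 without DSS_CS 2 and 0.0469 without DSS_CS 3. The DSS differences of the delivery groups differed by -0.11 ± 0.40 (interaction, adjusted p = 0.877).

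Insulin-like peptide 5, a relaxin family hormone made by L cells of the distal gut, is encoded by Insl5 (ENSMUSG00000066090, chr4:103017872-103026842, minus strand). It measured 145, 136, 136 and 108 FPKM in CON_VD and 68.4, 90.2, 97.8 and 90.2 in CON_CS. On DSS it measured 178, 94.7, 118 and 87.0 FPKM in DSS_VD and 85.9, 71.3, 139 and 90.8 in DSS_CS. The water groups did not overlap, with CON_CS lower, while both DSS groups overlapped both water groups. The DSS difference was -0.19 ± 0.22 in VD mice (limma adjusted p = 0.536) and 0.13 ± 0.20 in CS mice (adjusted p = 0.622), and the sign in CS mice turned under median-of-ratios scaling (-0.011) and without the libraries with high Pbsn (-0.24), and that in VD mice relative to the pan-epithelial genes (0.65). Per unit of epithelial transcript, 1000 times the ratio of Insl5 to Epcam was 175 to 209.7 in CON_VD and 132 to 401 in DSS_VD. The same ratio was 111 to 143 in CON_CS and 276 to 1043 in DSS_CS, so the CS groups did not overlap on this scale and the VD groups did. Epcam itself had a log2 difference of -2.08 in CS mice, which raises the ratio of any gene that fell less. Relative to the pan-epithelial genes, the Insl5 difference was 2.12 in CS and 0.65 in VD mice. The medians over all tested genes there were 2.05 and 0.89, so Insl5 did not stand out from other genes on that scale. Transcripts of the distal colon position list (6 Hox genes) moved too: 3 of 6 fell in VD mice and 6 of 6 in CS mice (Hoxd12 with a DSS library under 1 FPKM there). Their summed FPKM was 176 to 269 in CON_VD, 236 to 289.6 in CON_CS, 77.0 to 119 in DSS_VD and 46.9 to 92.5 in DSS_CS, and their part in the L-cell hormone values was not tested.

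**Figure D2:**
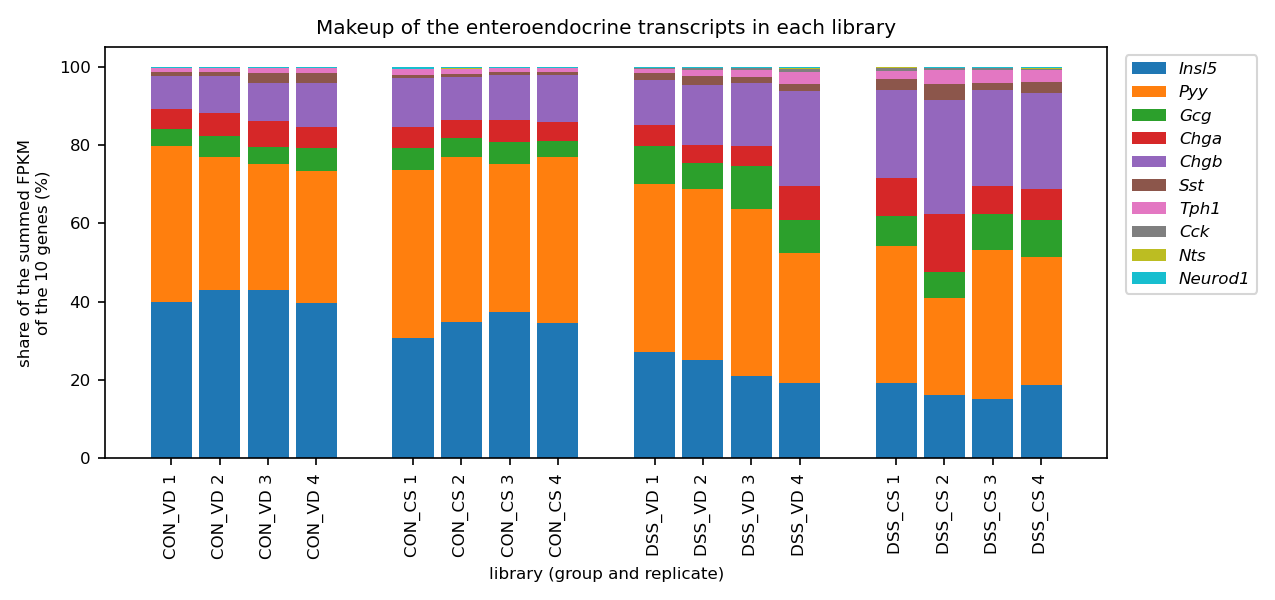
Share of the summed FPKM of the 10 genes (vertical axis, percent, from 0) held by each gene, in each library (horizontal axis, 4 libraries a group). The Insl5 share is at least 39.8% in CON_VD and at most 19.1% in DSS_CS, and the Chgb share reaches 29.1% in DSS_CS.

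The makeup of the hormone transcripts differed between the groups, with a smaller share of Insl5 on DSS, while Insl5 itself was not called in either DSS comparison. Insl5 held 39.8 to 43.1% of the summed FPKM of the 10 genes in CON_VD, 30.7 to 37.3% in CON_CS, 19.2 to 27.2% in DSS_VD and 15.3 to 19.1% in DSS_CS. Chgb held 8.58 to 11.1%, 10.95 to 12.5%, 11.49 to 24.2% and 22.4 to 29.1% in the same order. No 2 groups overlapped in the Insl5 share, although the lowest DSS_VD and the highest DSS_CS library were nearly equal. Among L-cell hormones the ratio of Pyy to Insl5 was 0.744 to 1.003 in CON_VD, 1.013 to 1.40 in CON_CS, 1.58 to 2.02 in DSS_VD and 1.54 to 2.48 in DSS_CS. The ratio of Gcg to Insl5 was 0.102 to 0.144, 0.118 to 0.183, 0.262 to 0.517 and 0.400 to 0.607. These ratios within a library, which any scaling of the whole library leaves as they are, were higher in every DSS library than in every water library for both pairs. Summed over the 10 genes, FPKM averaged 317 ± 37.6 in CON_VD, 251 ± 18.9 in CON_CS, 511 ± 121 in DSS_VD and 572 ± 227 in DSS_CS (SD, n = 4 each).

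By mean FPKM, which is scaled by gene length, the order in CON_VD was Insl5, Pyy, Chgb, Chga, Gcg, Sst, Tph1, Neurod1, Cck and Nts. Neighbours whose ranges overlapped there were Insl5 and Pyy, Chga and Gcg, Sst and Tph1, and Cck and Nts. In CON_CS Pyy stood before Insl5 with overlapping ranges, and Tph1 stood before Sst with ranges apart. In DSS_VD the order opened with Pyy, Insl5, Chgb and Gcg, each overlapping the next, and in DSS_CS with Pyy, Chgb and Insl5, which overlapped likewise. Cck, Neurod1 and Nts were the lowest 3 in all 4 groups, with Cck above Neurod1 in the DSS groups (ranges overlapping) and below it on water (ranges apart).

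Somatostatin, the inhibitory peptide of D cells that restrains other hormone cells, had the largest interaction of delivery and DSS among the 9 tested genes. Sst (ENSMUSG00000004366, chr16:23889573-23890958, minus strand) measured 3.89, 3.76, 8.35 and 7.36 FPKM in CON_VD and 1.43, 2.52, 2.08 and 2.19 in CON_CS. Under DSS it measured 10.8, 8.14, 9.08 and 7.94 FPKM in DSS_VD and 13.1, 18.1, 16.1 and 13.3 in DSS_CS. CON_CS was lowest and DSS_CS highest without overlap with any other group, whereas CON_VD 3 lay inside the DSS_VD range. Sst rose in CS mice by 2.40 ± 0.14 (limma adjusted p = 2.03e-06). In VD mice the difference was 0.60 ± 0.23 with an adjusted p of 0.0661, which became 0.0252 without CON_VD 3 and 0.0469 without CON_VD 4. The DSS difference was larger in CS mice by 1.80 ± 0.29 (interaction, adjusted p = 0.00606), a call kept in all 23 alternatives run. The alternative relative to the pan-epithelial genes favoured such a call, since 99.3% of the genes it called were higher.

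Under DSS itself, Sst was higher in CS than in VD mice by 0.69 ± 0.14 (limma adjusted p = 0.0313). This call was lost in 8 of 16 alternatives, with the direction kept in each. Leaving out 1 library gave adjusted p-values of 0.0706, 0.0733 and 0.0521 without DSS_VD 1, 2 and 4, and of 0.0737 and 0.0890 without DSS_CS 2 and 3. It was 0.0857 with no filter on low genes, 0.0868 with the replicate number as a block and 0.112 without the libraries with high Pbsn. The log2 difference stayed between 0.61 and 0.77 with 1 library left out.

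Tph1, the rate-limiting enzyme of serotonin synthesis outside the brain, rose in both delivery groups. Tph1 (ENSMUSG00000040046, chr7:46644641-46672537, minus strand) measured 3.33, 3.13, 4.15 and 3.44 FPKM in CON_VD and 3.51, 3.04, 2.78 and 2.70 in CON_CS. On DSS it measured 6.72, 5.95, 9.78 and 14.6 FPKM in DSS_VD and 9.18, 15.5, 30.3 and 14.7 in DSS_CS. All DSS libraries lay above all water libraries, and DSS_CS 3 was the highest by far. The rise was 1.12 ± 0.23 in VD mice (limma adjusted p = 0.00456) and 2.09 ± 0.29 in CS mice (adjusted p = 2.55e-04). The interaction was 0.97 ± 0.40 with an adjusted p of 0.114, and passed the threshold without DSS_VD 4 (0.0491) or without DSS_CS 1 (0.0328). Mast cell markers moved in the same comparisons: of 10 listed genes, 4 were tested in each, 3 rose and 1 fell in VD mice, and 2 rose in CS mice, all of these rises in genes with a water library under 1 FPKM (Mcpt1 and Mcpt2 in both, Cma1 in VD mice). Their summed FPKM was 6.06 to 10.5 in CON_VD, 6.80 to 9.95 in CON_CS, 8.30 to 64.6 in DSS_VD and 13.8 to 53.9 in DSS_CS. The receptor subunit genes Ms4a2 and Fcer1a were listed at 0 in 8 and 6 of the 16 libraries. By library the mast cell sums were 64.6, 8.30, 25.4 and 18.3 FPKM in DSS_VD and 13.8, 53.9, 39.5 and 17.8 in DSS_CS. The library with the lowest sum also had the lowest Tph1 in both DSS groups, and the one with the highest sum did not have the highest Tph1 in either. The part of mast cells in the Tph1 rise was not tested.

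Most of the other amine handling genes that were tested fell while Tph1 rose. Of 8 listed genes, 5 were tested in VD mice, of which 1 rose and 4 fell, and 6 in CS mice, of which 2 rose and 4 fell. All rises (Hdc in both, Slc18a2 in CS mice) were in genes with every water library under 1 FPKM. Like Cck, these passed the filter through their DSS libraries only, so they had to be higher. The fall of Slc6a4 in CS mice was fixed likewise, with every DSS_CS library under 1 FPKM. In VD mice the filter favoured that fall, as Slc6a4 had a DSS library under 1 FPKM. The median log2 difference was -1.14 and -1.38. Ddc, which turns the product of Tph1 into serotonin, measured 25.1, 20.7, 23.5 and 24.3 FPKM in CON_VD and 9.16, 9.16, 9.22 and 13.1 in DSS_VD. In CS mice Ddc measured 21.8, 28.4, 28.5 and 30.8 FPKM in CON_CS and 9.44, 7.72, 14.1 and 9.05 in DSS_CS. It fell by 1.14 and 1.38 on the log2 scale, and the DSS and water libraries did not overlap. Slc6a4, the serotonin uptake transporter, fell by 0.89 in VD and 1.38 in CS mice, and ranged over 2.62 to 6.09 FPKM in CON_VD, 0.796 to 2.92 in DSS_VD, 3.03 to 3.40 in CON_CS and 0.422 to 0.906 in DSS_CS. Maoa, which breaks serotonin down, fell by 2.49 and 3.17, and the related Maob fell by 2.08 and 1.58. Of 10 pan-epithelial genes, 5 fell in VD and 10 in CS mice, and their part in the falls of Ddc and Maoa was not tested. Hdc, which makes histamine, rose by 1.63 and 3.497, from at most 0.112 FPKM on water to 1.64 to 3.85 FPKM in DSS_VD and 6.14 to 13.8 in DSS_CS. Slc18a1, the vesicular amine transporter of enterochromaffin cells, was at 0.409 to 0.977 FPKM in CON_VD and 0.523 to 0.766 in CON_CS. It was at 0.688 to 1.40 FPKM in DSS_VD and 0.647 to 2.36 in DSS_CS, with overlap. The DSS difference was larger in CS mice for Hdc (interaction 1.86) and more negative for Maoa (-0.68), and both passed the test.

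**Figure D3:**
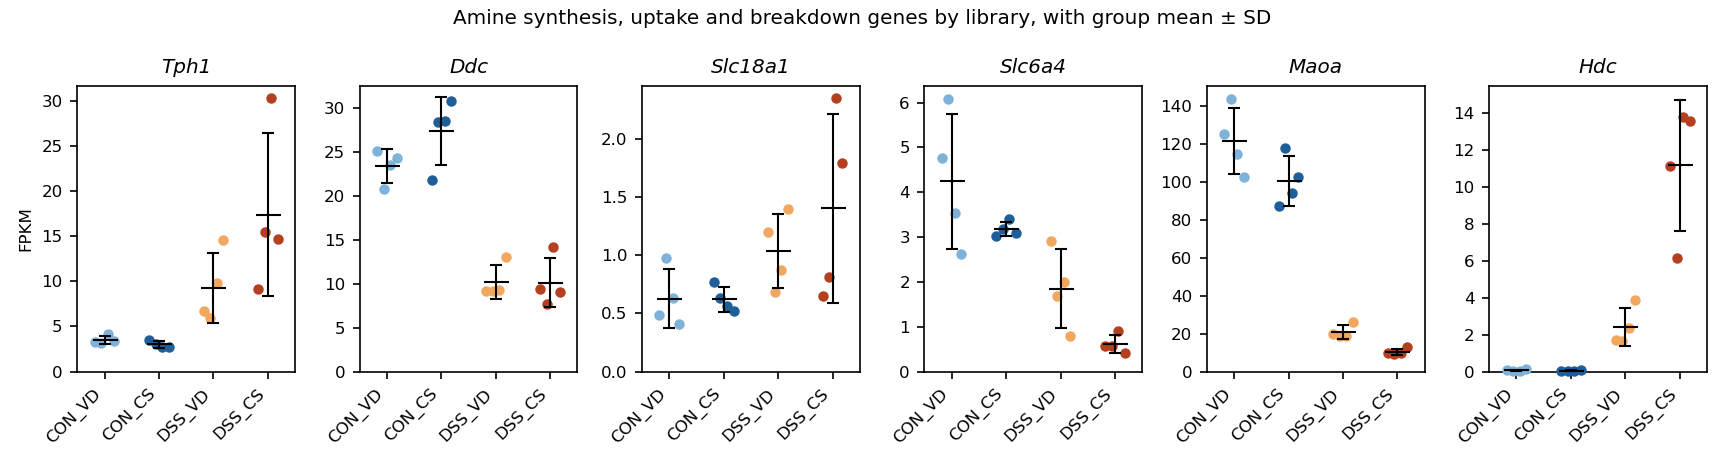
FPKM of Tph1, Ddc, Slc18a1, Slc6a4, Maoa and Hdc (vertical axis, linear, a separate scale in each panel) in the 4 groups (horizontal axis); points are libraries, and lines are the group mean ± SD of 4 libraries. Tph1 and Hdc are higher in all DSS libraries than on water, while Ddc and Maoa are lower in all of them.

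Cholecystokinin and neurotensin, peptides better known from the small intestine, were near 0 on water and detectable on DSS. Cck (ENSMUSG00000032532, chr9:121489824-121495694, minus strand) measured 0.112, 0.0253, 0 and 0.204 FPKM in CON_VD and 0.143, 0.185, 0.102 and 0.226 in CON_CS. DSS values were 2.88, 1.58, 2.54 and 3.44 FPKM in DSS_VD and 3.41, 2.18, 3.53 and 1.54 in DSS_CS. It was higher in every DSS library than in every water library, by 1.71 ± 0.17 in VD mice (limma adjusted p = 1.12e-04) and 1.62 ± 0.18 in CS mice (adjusted p = 7.48e-05). These p-values carry no weight, since Cck passed the filter through its DSS libraries only. Nts (ENSMUSG00000019890, chr10:102481756-102490486, minus strand) was listed at 0 in 6 of 8 water libraries and was otherwise at 0.0279 (CON_VD 1) and 0.139 FPKM (CON_CS 2). On DSS Nts measured 0.368, 0.124, 0.799 and 0.391 FPKM in DSS_VD and 0.304, 0.217, 0.313 and 0.920 in DSS_CS. Each DSS group lay above the water group of the same delivery (exact two-sided permutation test, p = 0.029 in each, the smallest that 4 against 4 libraries allow). With no filter on low genes, the limma adjusted p of Nts was 0.0333 in VD and 0.0409 in CS mice.

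The differentiation factor Neurod1 (ENSMUSG00000034701, chr2:79452521-79456751, minus strand) overlaps Cerkl and a long noncoding RNA gene, so its reads may be shared. It measured 1.15, 1.07, 1.0099 and 0.652 FPKM in CON_VD and 1.29, 1.24, 0.880 and 0.719 in CON_CS. On DSS it measured 1.52, 1.65, 1.68 and 1.98 FPKM in DSS_VD and 1.02, 1.30, 3.60 and 1.96 in DSS_CS. DSS_VD lay above CON_VD without overlap, and DSS_CS overlapped CON_CS, with DSS_CS 3 far above the rest. Neurod1 rose in VD mice by 0.46 ± 0.12 (limma adjusted p = 0.0118), a call lost in 1 fit on all 16 libraries (0.0700). In CS mice the difference was 0.48 ± 0.24 with an adjusted p of 0.118, or 0.0439 without DSS_CS 1. Of 19 other endocrine lineage transcription factors, 4 were tested in VD mice, of which 2 fell, and 6 in CS mice, of which 2 rose and 3 fell. The filter favoured the falls of Foxa2 in both and of Mnx1 in CS mice and the rise of Isl1. Foxa2 fell by 2.52 and 2.85, and Foxa1 by 0.57 and 1.59; both are also expressed in other epithelial cells. In CS mice Mnx1 fell by 0.97 and Isl1, which neurons also express, rose by 0.85. Neurog3, the factor that commits progenitors to the endocrine fate, stayed under 1 FPKM and was not tested. It was at 0.437 to 0.830 FPKM in CON_VD, 0.502 to 0.750 in CON_CS, 0 to 0.318 in DSS_VD and 0.0186 to 0.448 in DSS_CS.

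**Figure D4:**
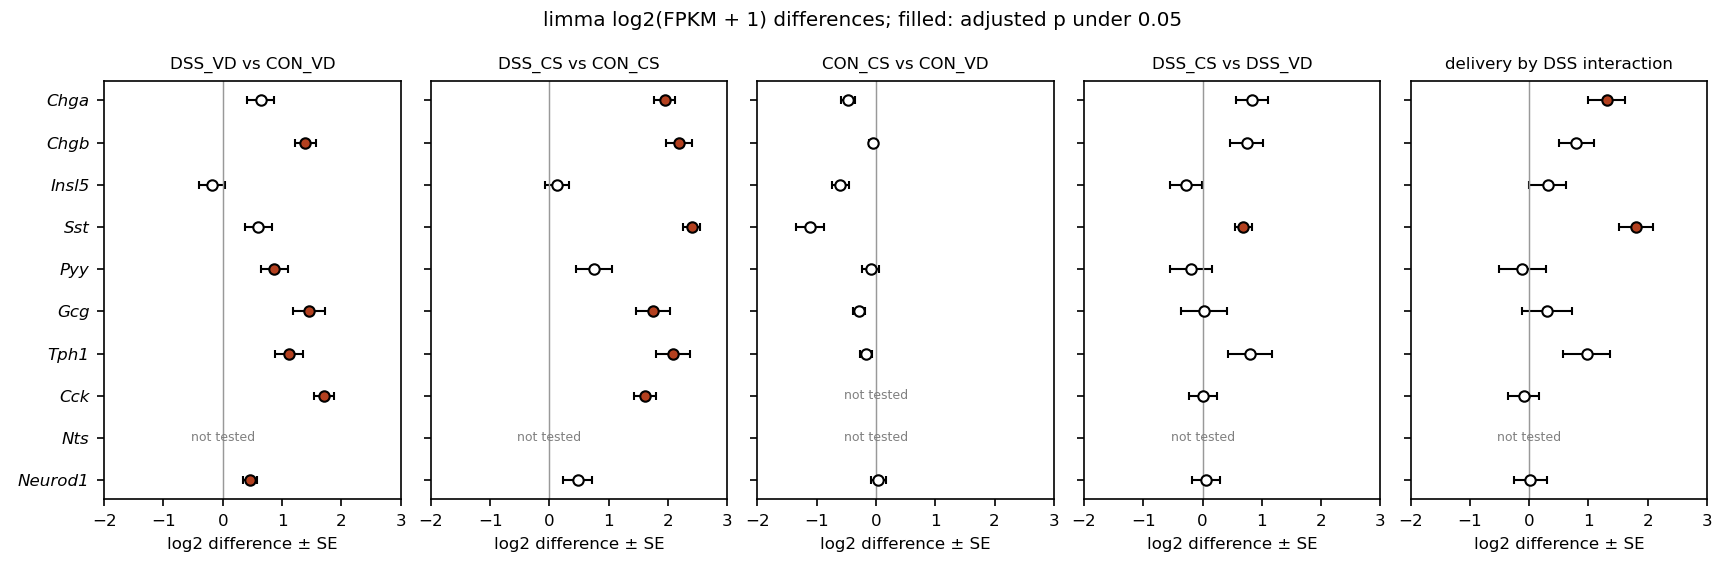
Log2(FPKM + 1) differences ± SE (horizontal axis) of each gene (vertical axis) in the 4 pairwise comparisons of 4 against 4 libraries and in the interaction on 16; filled points have a limma adjusted p under 0.05. Filled points lie to the right of 0 in both DSS comparisons, the water comparison has none, and the interaction has Chga and Sst.

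Between the delivery groups on water, no enteroendocrine gene passed the test. CON_CS and CON_VD also serve as the controls above, so the values are given side by side and not as separate evidence. Of the 8 tested genes, 0 were called by limma and 4 had an unadjusted p under 0.05 (Chga, Insl5, Sst and Gcg), as had 19.6% of all tested genes. By adjusted p, 0.181% of all tested genes were called higher and 0.226% lower. All 4 enteroendocrine genes had lower means in CON_CS. The differences were -1.11 ± 0.24 for Sst (adjusted p = 0.0851), -0.60 ± 0.14 for Insl5 (adjusted p = 0.0931), -0.48 ± 0.12 for Chga (adjusted p = 0.115) and -0.28 ± 0.10 for Gcg (adjusted p = 0.193). Without CON_VD 4, the library with pancreas transcripts, Chga and Insl5 passed, with adjusted p-values of 0.0420 and 0.0415. In 1 fit on all 16 libraries Sst passed (0.0278). The ranges of Insl5 and Sst did not overlap, with CON_CS lower, as was so for 4.41% of all tested genes. Chgb (-0.049 ± 0.069), Pyy (-0.087 ± 0.14) and Tph1 (-0.17 ± 0.10) had smaller differences, none past the threshold. Cck and Nts were too low to be tested (exact two-sided permutation p = 0.200 and 1).

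Under DSS, Sst alone among the 9 tested genes was called between DSS_CS and DSS_VD, beside 7.89% of all tested genes called higher and 5.54% lower. Chga did not overlap either, with DSS_CS higher by 0.83 ± 0.27, but its adjusted p was 0.0726; 15.3% of all tested genes were apart in this direction. Chgb (0.75 ± 0.28, adjusted p = 0.104) and Tph1 (0.80 ± 0.36, adjusted p = 0.165) had higher means in DSS_CS, with overlap. For the L-cell hormones the differences were 0.017 ± 0.39 for Gcg, -0.20 ± 0.35 for Pyy and -0.29 ± 0.27 for Insl5, and for Cck 0.0082 ± 0.23; none passed the test, and the signs of Gcg and Cck turned under median-of-ratios scaling. The interaction called 2 of 9 tested genes, Chga and Sst, beside 6.68% of all tested genes with a more positive DSS difference in CS mice and 6.55% with a more negative one. It was 0.80 ± 0.30 for Chgb (limma adjusted p = 0.0866), which passed without DSS_VD 4 (0.0465) or without DSS_CS 1 (0.0384).

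Markers of other cell types moved with these genes. Of 10 pan-epithelial genes, 5 fell in VD mice and 10 in CS mice, and 5 had a more negative DSS difference in CS mice. Of 10 enteric neuron markers, 5 of 7 tested rose in VD mice, 8 of 8 in CS mice (3 and 4 of these with a water library under 1 FPKM), and 6 of 8 had a larger DSS difference in CS mice. The neuron markers, all above 0 in every library, summed to 16.3 to 21.7 FPKM in CON_VD, 10.3 to 14.6 in CON_CS, 30.4 to 35.8 in DSS_VD and 46.9 to 119.96 in DSS_CS, the same order of groups as the mean FPKM of Chga, Chgb, Sst, Gcg and Tph1. The means of Cck, Nts, Neurod1, Pyy and Insl5 did not have this order. Those of Cck and Nts, which neurons also express, were lower in CON_VD (0.085 and 0.0070 FPKM) than in CON_CS (0.164 and 0.0349). The neuronal tubulin Tubb3 had an interaction of 1.99 beside 1.80 for Sst and 1.31 for Chga. Relative to Tubb3, Sst was 1.07 to 2.63 in CON_VD, 0.700 to 1.70 in CON_CS, 1.31 to 2.31 in DSS_VD and 0.698 to 1.29 in DSS_CS, with overlap between water and DSS. Chga relative to Tubb3 was 5.61 to 12.3 in CON_CS and 2.56 to 4.70 in DSS_CS, lower on DSS without overlap, whereas it was 4.92 to 7.05 in CON_VD and 3.26 to 7.45 in DSS_VD, with overlap. Relative to Epcam (times 1000), Sst was 2.32 to 3.67 in CON_CS and 41.9 to 197 in DSS_CS, without overlap, and 5.15 to 12.6 in CON_VD and 11.4 to 28.7 in DSS_VD, with overlap. Relative to the 10 pan-epithelial genes, all tested genes had a median log2 difference of 0.89 in VD and 2.05 in CS mice, beside 1.43 and 4.39 for Sst. The part of neurons and of the lower epithelial transcripts in the Chga, Chgb, Sst, Cck and Nts values was not tested.

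**Figure D5:**
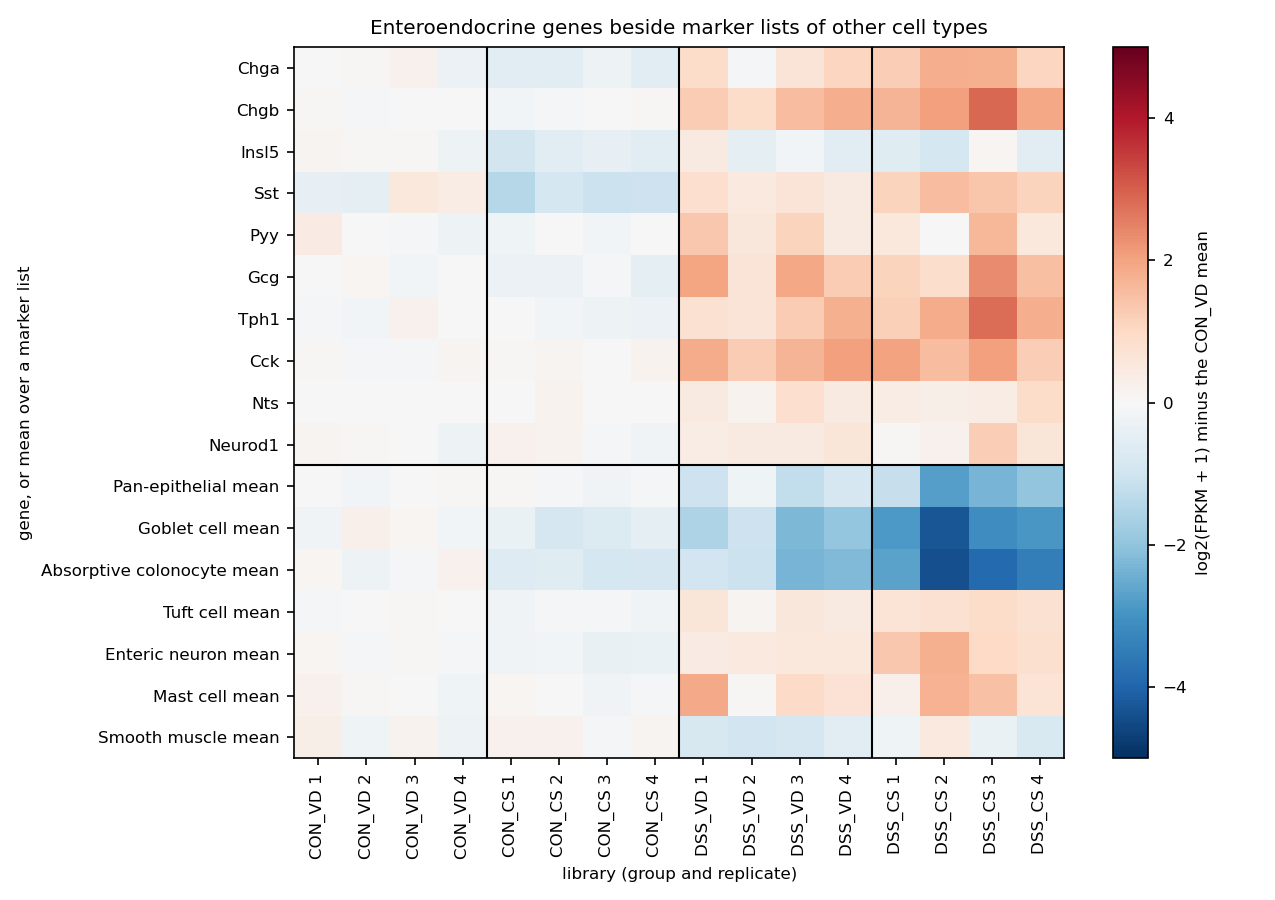
Log2(FPKM + 1) minus the CON_VD mean (colour, red higher and blue lower) for the 10 genes and for the means of 7 marker lists (rows) in the 16 libraries (columns, by group and replicate). Most enteroendocrine genes turn red in the DSS libraries together with the tuft cell and enteric neuron means, while goblet cell, absorptive colonocyte and pan-epithelial means turn blue; Insl5 shows no such turn to red.

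After the group means were subtracted from log2(FPKM + 1), the correlation over the 16 libraries was 0.88 for Insl5 and Pyy, 0.82 for Pyy and Gcg and 0.77 for Insl5 and Gcg, the L-cell hormones. It was 0.93 for Chgb and Tph1, and across these genes 0.31 for Insl5 and Chga, 0.65 for Chgb and Gcg, 0.49 for Chgb and Pyy and 0.51 for Gcg and Tph1. Neurod1 was at 0.77 with Tph1 and 0.61 with Pyy. These values describe genes measured in the same libraries, which share depth and tissue content. Library DSS_CS 3 was the highest of its group for 7 of the 10 genes (Chgb, Insl5, Pyy, Gcg, Tph1, Cck and Neurod1), whereas DSS_CS 2, the library with the largest sum of neuron markers, was the highest for Chga and Sst. With the mean of the neuron markers, treated the same way, the correlation was 0.26 for Chga, 0.19 for Sst, 0.11 for Cck, -0.18 for Chgb, -0.45 for Nts and -0.51 for Gcg. With the mean of the pan-epithelial markers it was -0.68 for Chga, -0.31 for Sst, -0.56 for Chgb, -0.44 for Gcg and -0.52 for Tph1.

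Among 14175 other genes with a mean of at least 1 FPKM, the pattern over the 16 libraries most like that of Chga belonged to Cadm1 (r = 0.97, or 0.82 after group means were subtracted), Vat1 (0.97 and 0.81), Rab12 (0.97 and 0.88), Ninj1 and P3h4. For Tph1 it belonged to Tnfaip6 (0.99 and 0.95), Chgb (0.98 and 0.93), Adamts9 (0.98 and 0.95), Jdp2 and Chil3. For Insl5 the likeness was weaker, with a predicted gene first and then Tor3a (0.73 and 0.69), Dcxr (0.73 and 0.66), Zbtb24 (0.73 and 0.73) and Adamdec1.

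Genes of granule assembly and prohormone processing rose more often than they fell, as did all tested genes (24.0% against 17.0% in VD mice, 34.4% against 25.9% in CS mice). Of 19 listed genes, 6 of 14 tested rose and 1 fell in VD mice, and 13 of 15 rose and 1 fell in CS mice, with median log2 differences of 0.24 and 1.08. Of these rises, 0 in VD and 4 in CS mice (Ptprn among them) had a water library under 1 FPKM. Syt13, a synaptotagmin, rose by 1.41 in VD and 2.18 in CS mice. Ptprn, a granule membrane protein, rose by 0.91 and 2.06. Scg5, the chaperone of the convertase PC2, rose by 0.82 and 2.14, and Pcsk1n, the inhibitor of the convertase PC1, by 0.66 and 1.61. Resp18 rose by 0.52 and 1.27. Syt7, a calcium sensor of exocytosis, fell by 0.88 and 0.93. The interaction called 9 of 16 higher, beside 6.68% of all tested genes, with Ptprn at 1.15, Scg5 at 1.32 and Pcsk1n at 0.95. Many of these genes are also expressed by neurons, whose markers moved as given above.

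Of 14 other gut peptides, 8 of 8 tested rose in VD mice and 8 of 9 in CS mice, and none fell. Among all tested genes, 24.0% rose in VD mice and 34.4% in CS mice. Of the peptide rises, 0 in VD and 1 in CS mice had a water library under 1 FPKM. Tac1, the substance P precursor of enterochromaffin cells and neurons, rose by 2.29 and 2.10, and ranged over 3.61 to 5.32 FPKM in CON_VD, 20.6 to 33.0 in DSS_VD, 3.55 to 5.46 in CON_CS and 16.4 to 31.4 in DSS_CS. Vip, a peptide of enteric neurons, rose by 1.27 and 2.95, and Penk, the enkephalin precursor, by 1.32 and 2.71. Adm, which encodes adrenomedullin and is made by many cell types, rose by 2.10 and 1.29, and Nucb2 by 1.38 and 1.77. The interaction called 4 of 9 higher and 1 lower, beside 6.68% and 6.55% of all tested genes, with Vip at 1.67 and Penk at 1.39. Of 19 sensing receptors and channels, 6 were tested in VD mice, with 1 fall, and 7 in CS mice, with 2 rises and 2 falls. Beside these, 17.0% of all tested genes fell in VD mice, and 34.4% rose and 25.9% fell in CS mice. Gucy2c, the guanylin receptor, fell by 1.012 and 2.47, and in CS mice the fatty acid receptor Ffar4 fell by 1.43 while the cannabinoid receptor Cnr1 rose by 1.06. The filter favoured both calls, since Ffar4 had a DSS library and Cnr1 a water library under 1 FPKM.

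Of 26 listed receptors for these hormones, with the peptidase that inactivates GLP-1, 10 were tested in VD mice, of which 2 rose and 5 fell, and 10 in CS mice, of which 4 rose and 4 fell, beside 24.0% and 17.0% of all tested genes in VD mice and 34.4% and 25.9% in CS mice. The filter favoured 1 of the rises and 3 of the falls in VD mice, and 4 and 2 in CS mice, Htr2b, Htr7, Htr4 and Npy1r among them. The serotonin receptor Htr4 fell by 1.84 and 1.73, while Htr2b rose by 0.87 and 2.18. Sort1, a sorting receptor that binds neurotensin, fell by 1.14 and 2.19, and Dpp4, the peptidase that cleaves GLP-1 and peptide YY, by 0.81 and 1.02. In CS mice Htr7 rose by 1.32 and Npy1r, a receptor of peptide YY, fell by 1.43. Rxfp4, the receptor of insulin-like peptide 5, was at most 0.190 FPKM in any library and was not tested.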

How the data were processed

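RNA-seq of 16 colon libraries was analysed, 4 in each of 4 groups taken from the labels. The authors deposited 1 table of FPKM for 39328 genes. Trimming with cutadapt, read checks with FastQC and the build GRCm38 are named, without versions, in the submitters' processing notes, and the labels' protocols name Trizol for the extraction. Aligner, quantifier, annotation and strand, not given in the sources used here, could change the values of genes that overlap or have an antisense partner. Depth is unknown: among 12971 genes under 0.3 FPKM, at most 0.978% of the ratios between libraries shared 1 value, so whole reads could not be recovered.

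Symbols came from a reference table (39181 of 39328 identifiers matched; the identifier of highest mean FPKM was used), positions from GENCODE M21 on GRCm38, and promoters from RefSeq. FPKM were tested as log2(FPKM + 1) with limma 3.58.1 in R 4.3.3, with an intensity trend, for genes of at least 1 FPKM in at least 4 fitted libraries, adjusted by Benjamini-Hochberg over all genes tested (13275 to 15233), two-sided, threshold 0.05. A pairwise comparison used only its 8 libraries, and the interaction all 16. Single values below the filter had an exact two-sided permutation test (scipy 1.17.1). The scripts were first tested on simulated data. Of each gene list, up to 4 called genes of smallest p in either DSS comparison and at most 3 in the others are named, with all 10 enteroendocrine genes and the 5 genes most like Chga, Insl5 and Tph1 (predicted genes counted, not named). The 10 genes, the lists and the tests were chosen with earlier results of these data known. Alternatives were another pseudocount (0.1), no filter, median-of-ratios scaling, values relative to 10 pan-epithelial genes, no intensity trend, a replicate block, 1 fit on all 16 libraries, leaving out the 3 libraries with Pbsn over 100 FPKM, and leaving out each library. Figures were drawn with matplotlib 3.10.9.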

Additional observations from a re-analysis of the deposited data

Results flagged for a closer look

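In 4 of the 40 gene and group combinations, 1 library of the 4 lay far from the other 3, and chance alone gives about 1 in 20; this rate does not apply to Nts on water, where the other 3 libraries of each group were listed at 0. Chga in CON_CS 3 was at 15.1 FPKM, above the other CON_CS libraries at 11.99 to 12.2. Nts reached 0.0279 FPKM in library 1 of CON_VD and 0.139 in library 2 of CON_CS, the only water libraries in which it was not listed at 0, and 0.920 in DSS_CS 4 against 0.217 to 0.313 in the rest of DSS_CS. The DSS difference also differed between the delivery groups for 2 genes, Chga (interaction 1.31 on the log2 scale, limma adjusted p = 0.0184) and Sst (1.80, adjusted p = 0.00606).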

How the results depend on the processing

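The rises of Chgb, Pyy, Gcg and Tph1 in VD mice and of Chga, Chgb, Sst, Gcg and Tph1 in CS mice, and the interaction of Sst, were kept in all alternatives that gave a value. Among these, the fit relative to the pan-epithelial genes could hardly lose a rise. Of the genes called there, 96.7% were higher in VD mice, 98.7% in CS mice and 99.3% in the interaction. Over single genes, 660 of 748 repeats kept direction and side of the threshold, 10 lost the call, 35 gained it and 43 changed sign. As reported, the called genes numbered 5704 for DSS in VD mice, 8666 for DSS in CS mice, 54 for CS against VD on water, 1923 for CS against VD on DSS and 2015 for the interaction. Relative to the pan-epithelial genes, the called genes numbered 9703 of 13933 tested for DSS in VD mice and 13499 of 14372 for DSS in CS mice. They numbered 11494 of 14313 for CS against VD on DSS and 9206 of 15233 for the interaction. Most tested genes of any kind were thus called on this scale. The called enteroendocrine genes, 8 of 9 for CS against VD on DSS and 6 of 9 for the interaction, are to be read beside that. On this scale the sign turned for Insl5 for DSS in VD mice (0.65), Chgb for CS against VD on water (0.015), Insl5 for CS against VD on DSS (0.93), Pyy for CS against VD on DSS (1.02), Pyy for the interaction (1.04) and Cck for the interaction (1.06). Under median-of-ratios scaling, the sign turned for Insl5 for DSS in CS mice (-0.011), Gcg for CS against VD on DSS (-0.092), Cck for CS against VD on DSS (-0.066) and Neurod1 for CS against VD on DSS (-0.011). Without the libraries with high Pbsn, the called genes numbered 5217 for DSS in CS mice, 15 for CS against VD on water, 6 for CS against VD on DSS and 637 for the interaction, and the called enteroendocrine genes numbered 0 for CS against VD on DSS and 1 for the interaction, and the sign turned for Insl5 for DSS in CS mice (-0.24), Neurod1 for CS against VD on water (-0.019), Gcg for CS against VD on DSS (-0.45), Neurod1 for CS against VD on DSS (-0.33), Insl5 for the interaction (-0.056), Gcg for the interaction (-0.17) and Neurod1 for the interaction (-0.31). With a pseudocount of 0.1, the sign turned for Neurod1 for the interaction (-0.030). Without the filter, the called genes numbered 3 for CS against VD on water, 3 for CS against VD on DSS and 1042 for the interaction, and the called enteroendocrine genes numbered 0 for CS against VD on DSS. In 1 fit on all 16 libraries, the called genes numbered 3855 for CS against VD on DSS, and the called enteroendocrine genes numbered 1 for CS against VD on water and 4 for CS against VD on DSS. With each library left out in turn, the called genes numbered 0 to 275 for CS against VD on water, 0 to 2054 for CS against VD on DSS and 1056 to 2515 for the interaction, the called enteroendocrine genes 0 to 2 for CS against VD on water, 0 to 1 for CS against VD on DSS and 2 to 4 for the interaction, and the sign turned for Insl5 in DSS in CS mice (-0.062 to 0.26), Pyy in CS against VD on water (-0.17 to 0.048), Neurod1 in CS against VD on water (-0.040 to 0.12), Pyy in CS against VD on DSS (-0.53 to 0.023), Gcg in CS against VD on DSS (-0.29 to 0.21), Cck in CS against VD on DSS (-0.14 to 0.17), Neurod1 in CS against VD on DSS (-0.18 to 0.22), Pyy in the interaction (-0.44 to 0.11), Gcg in the interaction (-0.0029 to 0.49), Cck in the interaction (-0.25 to 0.068) and Neurod1 in the interaction (-0.22 to 0.18). The causes were not tested.

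Libraries of the same replicate number were not alike in expression: over 24 same-numbered pairs the correlation of deviations from the group means was -0.28 to 0.13, over 0.1 in 2. The own number was the most alike in 6 of 48 cases. Such low correlation cannot exclude that libraries of the same number shared a litter or a preparation. With the replicate block, the called genes numbered 7 for CS against VD on water and 2 for CS against VD on DSS, and the called enteroendocrine genes numbered 0 for CS against VD on DSS.

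Relative to the pan-epithelial genes, the median log2 difference of all genes was 0.89 in VD mice, 2.05 in CS mice, 1.28 for CS against VD on DSS and 1.20 for the interaction, so gene differences on that scale are to be read against these. Median-of-ratios scaling moved this median in CS mice from 0.058 to -0.054, and the share of called genes that were higher from 58.6 to 48.8% in VD mice, from 57.0 to 47.1% in CS mice and from 58.8 to 47.4% for CS against VD on DSS. Cck could not be tested in 4 fits with a library left out of each DSS group, nor Cck and Neurod1 in CS mice without the libraries with high Pbsn, because of the filter. With 4 libraries a group and unknown depth, Cck, Nts and Neurod1 are the least certain values.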

Other observations

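Tuft cells, chemosensory cells of the gut epithelium, were described by 8 markers. Of these, 3 of 4 tested rose with DSS in VD mice and 5 of 5 in CS mice by limma, of which 1 and 4 (Dclk1 in both, Ltc4s in CS mice) had a water library under 1 FPKM, so that the filter favoured a rise. Their summed FPKM was 6.96 to 8.01 in CON_VD, 5.49 to 6.61 in CON_CS, 11.96 to 28.4 in DSS_VD and 28.7 to 38.1 in DSS_CS. The kinase Dclk1 rose by 0.66 in VD and 1.19 in CS mice, and Ltc4s, which makes leukotrienes, by 0.94 and 2.20. Goblet cell markers fell in both, 8 of 8 tested in VD mice and 8 of 8 in CS mice, with medians of -1.58 and -2.56; Spdef in CS mice had a DSS library under 1 FPKM.

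Ppy, the neighbour of Pyy in the same peptide family, was at 25.0 to 30.0 FPKM in CON_VD, 18.6 to 24.8 in CON_CS, 30.0 to 174 in DSS_VD and 41.5 to 112 in DSS_CS. The exocrine pancreas transcripts of CON_VD 4 included Ctrb1 at 23.2 FPKM and Prss2 at 21.0 FPKM.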
